A study of Mus musculus with 3 samples.

Results

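The type I interferon response genes are genes that cells turn on when interferon alpha or beta binds its receptor. A list of 38 symbols defined them, and 36 were found among the 32285 genes of the count tables. Mx1 and Mx2 were not analysed here. The rule for membership is the gene symbol and uses no measured value. The list was read by cell class and library in single-cell RNA-seq of mouse tumours, and a member counted as measured in a comparison when it had at least 20 UMIs in the class over both libraries compared. A UMI stands for 1 captured RNA molecule.

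There were 3 libraries, 1 for each group. The cancer cells injected in every group were LLC1-sgLkb1, a derivative of Lewis lung carcinoma with LKB1 knocked down. They went first into the tail vein, which seeds the lung, and 3 weeks later under the skin. CKO+RI came from hosts labelled Sfrp2 ΔCol1a2, in which Sfrp2 is deleted in cells that use the Col1a2 promoter, chiefly fibroblasts. These hosts received radiation to the subcutaneous tumour and an immune checkpoint inhibitor. Flox+RI came from Sfrp2 fl/fl hosts under the same 2 treatments. Flox+ICI came from Sfrp2 fl/fl hosts given the checkpoint inhibitor alone. The tissue is labelled only as tumor, and the number of mice behind a library is not given. Comparing CKO+RI with Flox+RI concerns the host genotype under both treatments, and comparing Flox+RI with Flox+ICI concerns the addition of radiation. Both comparisons share the Flox+RI library. With 1 library in each group no test between groups was possible. All intervals below are exact 95% intervals that cover counting error only, not the differences between mice or library preparations.

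Type I interferons signal through the receptor pair Ifnar1 and Ifnar2 and the kinases Jak1 and Tyk2. These activate the complex ISGF3, which holds Stat2 and Irf9 and binds interferon-stimulated response elements near the genes listed here. Many of the proteins sense or degrade viral nucleic acid, block virus entry or budding, or feed back on the pathway itself. In tumours the response is known as a readout of nucleic acid sensing and of signalling between dying cells, myeloid cells and T cells.

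After filters and doublet removal 8383, 11706 and 9777 cells were kept of CKO+RI, Flox+RI and Flox+ICI, with a median of 13406, 2577 and 3018 UMIs per cell. Before filters the libraries held 161250286, 101840883 and 75543561 UMIs, and 31 to 37 barcodes were shared by each pair of libraries. Sfrp2 itself did not bear out the genotype label. Over all kept cells the library labelled CKO+RI held 46 Sfrp2 UMIs in 20 cells, against 3 UMIs in 3 cells of Flox+RI and 6 UMIs in 6 cells of Flox+ICI. In fibroblast-gated cells, where the deletion is driven, it was found in 2 of 125 cells in CKO+RI, 1 of 50 in Flox+RI and 2 of 169 in Flox+ICI. These cells held 5, 1 and 2 Sfrp2 UMIs, too few to show whether the gene was deleted. Every direction drawn below from CKO+RI therefore refers to the library labelled CKO+RI. Cells were placed in classes by marker genes, and 12.8%, 33.4% and 16.4% of the kept cells of CKO+RI, Flox+RI and Flox+ICI had no class. In each compared class all listed own markers were detected and were higher than over the other classes, except in tumour cells, where this held for 8 of 9 markers. Cells were gated on these same markers, so this is no independent check of the classes. The compared classes held 574, 1639 and 1560 neutrophils, 209, 73 and 668 classical monocytes, 442, 1169 and 743 macrophages, 425, 434 and 622 T cells, 247, 109 and 401 endothelial cells, and 4420, 3797 and 2985 tumour cells.

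The control elements of these genes were read in the RefSeq promoter windows of build GRCm38.p6, which run from 250 bases before to 50 bases after a gene's start. The sequences below show that members with large differences between the libraries include some with several copies of the element's core, some with 1 and some with none. A window was on hand for 28 of the 36 members. Dhx58, Ifi27l2a, Oas2, Parp9, Parp14, Rtp4, Usp18 and Zbp1 had none. The core of the interferon-stimulated response element, searched as GAAANNGAA on both strands with overlaps allowed, was in 16 of the 28 windows, or 57.1% (Clopper-Pearson 37.2% to 75.5%). It was in 2317 of 27025 windows of all genes, or 8.57%. The core followed by 1 more A was in 14 of the 28 windows, or 50%, against 3.49% of all windows. The gamma-activated site, searched as TTCNNNGAA, was in 7 of the 28 windows, or 25%, against 8.47% of all windows. Of 31 core sites, 25 began before the gene's start, the farthest at position -221, and 11 windows held more than 1. A match is a description of the letters and not of binding, and its absence says only that these letters are not in the window. In the lines below, the 200 bases before each start are written from 5′ to 3′ on the gene's strand, with each match to the core, on either strand, in capitals.

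Ifit3 (chr19:34583329-34583528, plus strand, 3 sites): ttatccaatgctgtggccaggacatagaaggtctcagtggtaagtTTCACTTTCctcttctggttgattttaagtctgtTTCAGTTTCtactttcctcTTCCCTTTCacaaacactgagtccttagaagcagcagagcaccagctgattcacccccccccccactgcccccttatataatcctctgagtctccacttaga

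Isg15 (chr4:156200819-156201018, minus strand, 3 overlapping sites): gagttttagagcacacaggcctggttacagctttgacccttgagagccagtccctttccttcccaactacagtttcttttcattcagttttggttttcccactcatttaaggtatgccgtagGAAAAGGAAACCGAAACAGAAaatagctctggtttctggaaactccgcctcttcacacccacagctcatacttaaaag

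Rsad2 (chr12:26456453-26456652, minus strand, 1 site): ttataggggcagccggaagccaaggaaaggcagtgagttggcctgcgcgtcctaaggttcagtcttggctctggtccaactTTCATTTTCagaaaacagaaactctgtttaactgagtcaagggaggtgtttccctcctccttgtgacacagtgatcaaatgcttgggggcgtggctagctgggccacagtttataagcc

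Irf7 (chr7:141266425-141266624, minus strand, no site): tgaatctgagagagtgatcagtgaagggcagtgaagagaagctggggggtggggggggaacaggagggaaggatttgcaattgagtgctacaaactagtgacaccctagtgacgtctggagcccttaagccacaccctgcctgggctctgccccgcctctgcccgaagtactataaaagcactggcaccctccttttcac

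Ifit3 and Isg15 thus carry 3 core sites each, Rsad2 carries 1, and the window of Irf7 carries none of these letters. The genes Ifit2, Ifit3, Ifit3b and Ifit1 lie together on chromosome 19. Ifit3 and Ifit3b, and likewise Oas1a and Oas1g, are near-identical copies, so how reads were split within each pair is uncertain.

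Levels are given as CPM, the UMIs of a gene in 1000000 UMIs of its class, not divided by length, since 1 molecule gives 1 UMI. Ifitm3, which blocks virus entry from endosomes, held 38.5% of the members' UMIs in neutrophils of CKO+RI, 42.8% in those of Flox+RI and 51.9% in those of Flox+ICI, and sums below leave it out. Without Ifitm3, the summed members were highest in neutrophils and classical monocytes and lowest in tumour cells in each library, among the 6 classes compared. The lead of these myeloid classes was clear only in CKO+RI. In Flox+RI the intervals of both overlapped that of macrophages, and in Flox+ICI that of monocytes overlapped that of endothelial cells. The 35 members summed to 4518 CPM in CKO+RI neutrophils (4393 to 4645), 1972 CPM in Flox+RI neutrophils (1896 to 2050) and 2327 CPM in Flox+ICI neutrophils (2258 to 2399). In classical monocytes they summed to 5135 CPM in CKO+RI (4993 to 5280), 2150 CPM in Flox+RI (1919 to 2401) and 2104 CPM in Flox+ICI (2042 to 2168). These myeloid sums were thus more than 2-fold higher in CKO+RI than in Flox+RI. In tumour cells the sums were 590 CPM in CKO+RI (586 to 595), 483 CPM in Flox+RI (478 to 488) and 857 CPM in Flox+ICI (848 to 865).

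Macrophages, T cells and endothelial cells did not follow 1 order of the libraries. In macrophages the 35 members summed to 1329 CPM in CKO+RI (1293 to 1366), 1952 CPM in Flox+RI (1913 to 1991) and 1664 CPM in Flox+ICI (1625 to 1703). T cells had 1700 CPM in CKO+RI (1636 to 1765), 1382 CPM in Flox+RI (1303 to 1465) and 1151 CPM in Flox+ICI (1095 to 1210). Endothelial cells had 1988 CPM in CKO+RI (1894 to 2086), 1208 CPM in Flox+RI (1123 to 1298) and 1995 CPM in Flox+ICI (1908 to 2084). Flox+RI was therefore the highest library in macrophages, the middle one in T cells and the lowest in endothelial and tumour cells. In a sum over a class, fewer responding cells and less RNA in each cell cannot be told apart.

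**Figure D1:**
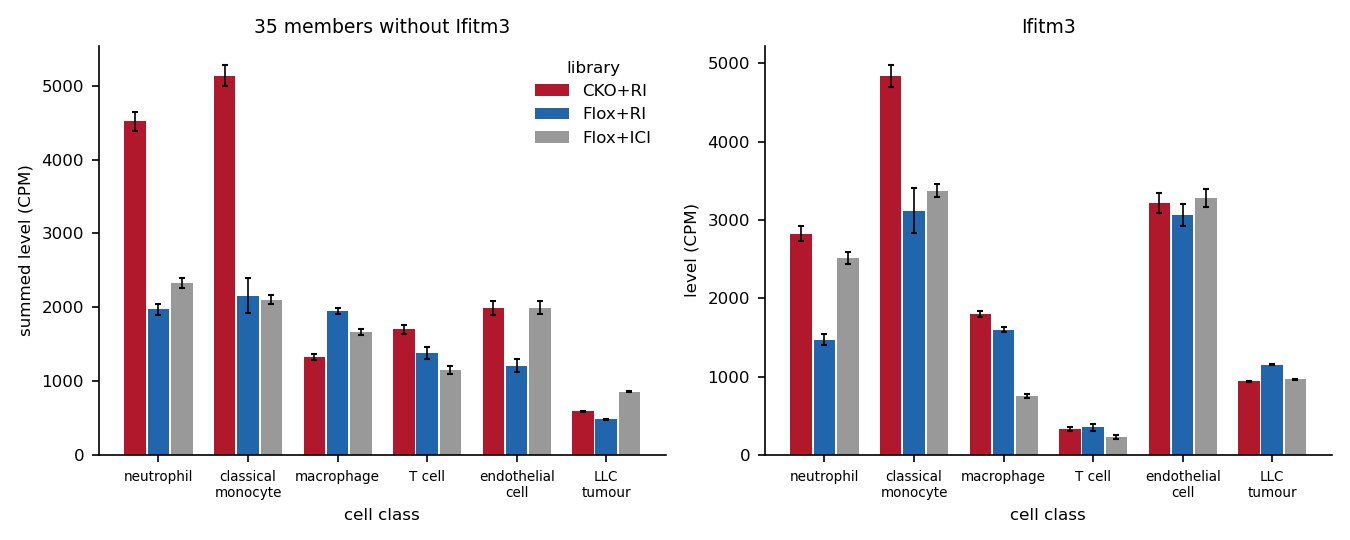
Summed level of the 35 members other than Ifitm3 (left) and level of Ifitm3 (right) in CPM, by cell class and library, with exact 95% Poisson intervals for counting error. In neutrophils and classical monocytes CKO+RI stands highest at 4518 and 5135 CPM, and in macrophages Flox+RI stands highest at 1952 CPM.

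Individual members differed in where they were highest. Over 8 classes, the 6 above with alveolar macrophages and alveolar type 2 cells, 12 of the 36 members had their highest level in the same class in all 3 libraries. In neutrophils these were Isg15, a ubiquitin-like protein joined to other proteins, Oasl2, an oligoadenylate synthetase-like protein, Rtp4, a chaperone of membrane receptors, and Samd9l. In classical monocytes they were Oas1a, Ifi27l2a, Dhx58, Zbp1 and Ifitm3. Bst2, the tetherin that holds budding virus at the cell surface, and Ifi44 were highest in endothelial cells, and Lgals3bp, a secreted glycoprotein that binds galectins, in macrophages. Of the 12, only Isg15, Oasl2 and Ifi27l2a had an interval above those of all other classes in each library. Ifitm3, for example, had 3115 CPM in monocytes of Flox+RI and 3060.5 CPM in its endothelial cells. The counts that follow rank levels whether or not intervals overlap. Of the 36 members, monocytes held the highest level of 19 in CKO+RI, of 11 in Flox+RI and of 6 in Flox+ICI. Endothelial cells held that of 3 members in CKO+RI, of 3 in Flox+RI and of 12 in Flox+ICI. Tumour cells had the lowest level of 15 members in CKO+RI, of 16 in Flox+RI and of 8 in Flox+ICI.

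The leading members of each class were partly shared. By the mean over the libraries, the first 5 in neutrophils were Ifitm3, Ifi27l2a, Isg15, Trim30a and Oasl2. In classical monocytes they were Ifitm3, Ifi27l2a, Zbp1, Bst2 and Trim30a, and in macrophages Ifitm3, Bst2, Ifi27l2a, Lgals3bp and Irf7. T cells were led by Ifi27l2a, Ifitm3, Bst2, Isg15 and Parp14, endothelial cells by Ifitm3, Bst2, Isg15, Ifi35 and Lgals3bp, and tumour cells by Ifitm3, Bst2, Ifi35, Eif2ak2 and Lgals3bp. Ifitm3 and Bst2 were thus among the first 5 in every class but neutrophils, where Bst2 was not. Ifitm3 stood at 2825, 1475 and 2513 CPM in neutrophils of CKO+RI, Flox+RI and Flox+ICI and at 943, 1154 and 966 CPM in their tumour cells. Bst2 stood at 429, 352 and 489 CPM in endothelial cells of CKO+RI, Flox+RI and Flox+ICI and at 95.8, 136 and 94.2 CPM in their neutrophils.

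**Figure D2:**
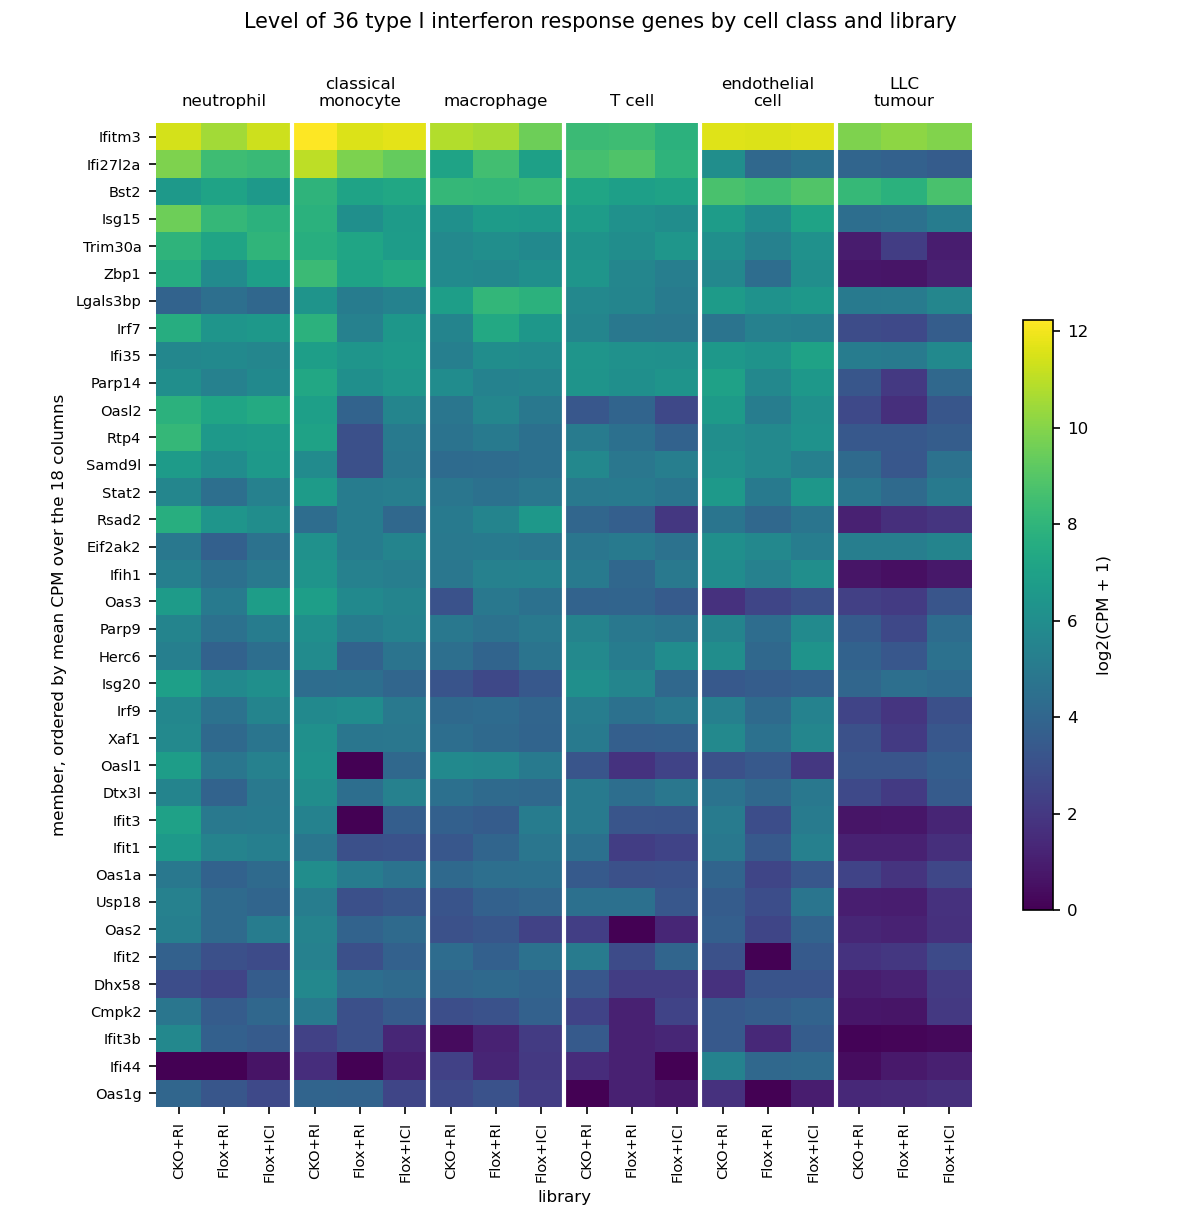
Level of each of the 36 members (rows) in 6 cell classes and 3 libraries (columns), as a colour scale of log2(CPM + 1). Ifitm3 and Bst2 are high in all classes, and Ifit3 lies at 1.37 CPM or less in tumour cells, against 129 CPM in CKO+RI neutrophils.

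The ligands of the response were almost absent from the data. Of 20 genes for type I and type III interferons, 5 had a UMI in CKO+RI, 7 had one in Flox+RI and 4 had one in Flox+ICI, with 45, 40 and 20 UMIs in all. Ifnb1, the interferon beta that most cells make first, had 1 UMI, in a macrophage of CKO+RI. Most of the others came from Ifnz, an interferon zeta gene, in tumour cells, with 30 UMIs in 27 cells of CKO+RI, 25 UMIs in 23 cells of Flox+RI and 12 UMIs in 12 cells of Flox+ICI. At this depth no difference in type I ligands between libraries could be read.

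Ifng, the type II interferon made by T and NK cells, was counted beside them because it induces many of the same genes. It had 695 UMIs in 185 of 425 T cells of CKO+RI, 109 UMIs in 68 of 434 T cells of Flox+RI and 305 UMIs in 123 of 622 T cells of Flox+ICI. Median depth in these T cells was 2993, 1506 and 1695 UMIs. Tumour cells, which should lack it, had an Ifng UMI in 65 of 4420 cells of CKO+RI, 22 of 3797 of Flox+RI and 17 of 2985 of Flox+ICI, at median depths of 25875, 16662 and 14962 UMIs. Per class total, Ifng in T cells was 3.34-fold higher in CKO+RI than in Flox+RI (2.73 to 4.13). Among T cells, 47.3% of those in CKO+RI, 28.1% of those in Flox+RI and 33.8% of those in Flox+ICI had Cd8 and no Cd4 UMI.

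In neutrophils most members were higher in CKO+RI, as labelled, than in Flox+RI. Of 34 measured members, 22 were at least 2-fold higher and 0 were at least 2-fold lower, where 6.04% of 7949 genes were at least 2-fold higher and 14.8% at least 2-fold lower. Their median log2 ratio was 1.15, beside -0.22 for all genes measured. The interferon effectors Ifit3, Isg15 and Rsad2, the regulators Irf7 and Usp18, and the ISGF3 subunits Stat2 and Irf9 all lay on the higher side. Bst2 was among the few on the lower side.

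Ifit3, an RNA-binding protein with tetratricopeptide repeats, had 141 UMIs in CKO+RI neutrophils, 39 in Flox+RI and 59 in Flox+ICI, which came to 129, 30.2 and 32.3 CPM. It was 4.26-fold higher in CKO+RI than in Flox+RI (2.97 to 6.23). Oasl1, an OAS-like protein known in mice to restrain Irf7, had 110, 27.1 and 41.1 CPM in CKO+RI, Flox+RI and Flox+ICI and was 4.07-fold higher in CKO+RI than in Flox+RI (2.77 to 6.11). Both showed the same picture, with CKO+RI apart and the Flox libraries nearer to each other. Ifi27l2a, a small interferon-inducible membrane protein, had 951, 343 and 314 CPM in that order and was 2.78-fold higher (2.48 to 3.11). Isg15 had 822 UMIs in CKO+RI neutrophils, 371 in Flox+RI and 428 in Flox+ICI, or 750, 288 and 234 CPM, and was 2.61-fold higher (2.30 to 2.96).

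The regulators of the pathway were likewise higher in CKO+RI than in Flox+RI. Irf7, the factor that amplifies interferon output, had 193 CPM in CKO+RI neutrophils, 83.0 in Flox+RI and 92.6 in Flox+ICI, and was 2.33-fold higher in CKO+RI than in Flox+RI (1.84 to 2.97). Stat2 had 48.4, 20.9 and 41.1 CPM in CKO+RI, Flox+RI and Flox+ICI and was 2.31-fold higher (1.43 to 3.82), and its partner Irf9 had 50.2, 23.3 and 45.5 CPM and was 2.16-fold higher (1.36 to 3.49). For this pair Flox+RI was the low library, while CKO+RI and Flox+ICI lay close together. Usp18, which removes Isg15 from proteins and dampens the receptor, had 40.2, 17.8 and 14.8 CPM in the same order and was 2.25-fold higher (1.33 to 3.91). Bst2 was 1.42-fold lower in CKO+RI than in Flox+RI (1.11 to 1.82), but 1.46-fold higher where whole clusters were named in place of single cells.

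The neutrophils of Flox+RI stood apart in other measures. Median depth was 1849 UMIs in CKO+RI neutrophils, 735 UMIs in Flox+RI and 1065 UMIs in Flox+ICI. All 10 neutrophil markers were detected in each library, but they summed to 152592 CPM in CKO+RI, 54872 CPM in Flox+RI and 161788 CPM in Flox+ICI. Alveolar macrophage markers summed to 210 CPM in CKO+RI neutrophils (7 of 9 with a UMI), 1190 CPM in Flox+RI (6 of 9) and 353 CPM in Flox+ICI (9 of 9). A cluster led by Il1b and Il1r2 held 24.4% of the gated neutrophils of CKO+RI, 65.3% of those of Flox+RI and 28.4% of those of Flox+ICI. A cluster led by Retnlg, S100a9 and S100a8 held 64.6%, 12.1% and 71.0% in the same order. Within the Il1b-led cluster alone the members' median log2 ratio of CKO+RI over Flox+RI was 1.0, with 15 of 29 measured members at least 2-fold higher, against 6.33% of all genes there. Within the Retnlg-led cluster it was 0.72, with 9 of 31, against 7.97% of all genes there. Isg15 was 3.07-fold higher in CKO+RI than in Flox+RI within the Il1b-led cluster (2.56 to 3.68) and 2.01-fold higher within the Retnlg-led cluster (1.56 to 2.63). Ifi27l2a was 2.18-fold higher within the Il1b-led cluster and 1.16-fold within the Retnlg-led one (0.98 to 1.37). Ifit3 was 4.21-fold higher within the Il1b-led cluster and 2.76-fold within the Retnlg-led one, and Irf7 1.80-fold and 1.71-fold. The ISGF3 subunits rested on few UMIs within clusters and their intervals held 1. Irf9 had a ratio of 0.811 (0.198 to 2.49) in the Il1b-led cluster and 1.33 (0.623 to 3.27) in the Retnlg-led one, and Stat2 ratios of 1.62 (0.606 to 3.96) and 1.90 (0.752 to 6.17). The intervals of Usp18, at ratios of 2.21 and 2.63, and of Bst2, at 1.07 and 0.864, held 1 in both clusters too.

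The neutrophil result also depended on how cells were classed. Where whole clusters were named in place of single cells, 2 members were at least 2-fold higher and the median was 0.35, with ratios of 1.81 for Ifit3, 2.21 for Oasl1 and 1.26 for Ifi27l2a. That setting adds to the CKO+RI neutrophils 204 cells of another cluster with neutrophil markers at 2524 CPM and the 35 members at 691 CPM. It also leaves out an unnamed cluster of 370 gated Flox+RI neutrophils with neutrophil markers at 9463 CPM and the members at 1222 CPM.

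In classical monocytes 22 of 33 measured members were at least 2-fold higher in the library labelled CKO+RI than in Flox+RI and 0 were at least 2-fold lower, where 11.2% of 6433 genes were higher by that fold and 8.13% lower. The members' median log2 ratio was 1.20, or 1.18 with members absent from Flox+RI set at their bound, beside 0.02 for all genes. These values rest on 209 CKO+RI cells with a median of 4645 UMIs and on only 73 Flox+RI cells with a median of 2059, so single members have few UMIs in Flox+RI. By markers alone 260, 347 and 738 cells of CKO+RI, Flox+RI and Flox+ICI were classical monocytes, and 51, 274 and 70 of them were left out because they lay in clusters not named for that class. With every gated monocyte kept, 19 members were at least 2-fold higher in CKO+RI than in Flox+RI and 1 at least 2-fold lower, and the median was 1.15. Irf7 had 223 UMIs in CKO+RI, 6 UMIs in Flox+RI and 182 UMIs in Flox+ICI, or 231, 41.1 and 89.3 CPM, and was 5.63-fold higher in CKO+RI than in Flox+RI (2.55 to 15.5), but its ratio was 1.01 with every gated monocyte kept. Rtp4 had 127 UMIs in CKO+RI, 1 UMIs in Flox+RI and 65 UMIs in Flox+ICI, and the ratio of CKO+RI over Flox+RI was 19.2 (3.39 to 766), or 3.65 with every gated monocyte kept. These 2 members had CKO+RI highest and Flox+RI lowest. Oasl1 had 73 UMIs in CKO+RI, 0 UMIs in Flox+RI and 34 UMIs in Flox+ICI, and was at least 3.69-fold higher in CKO+RI than the floor of 3 counts in Flox+RI, or 1.74-fold higher with every gated monocyte kept. Isg15 had 227, 68.5 and 104 CPM in CKO+RI, Flox+RI and Flox+ICI and was 3.32-fold higher in CKO+RI than in Flox+RI (1.77 to 7.02). Ifi27l2a, by far the most abundant after Ifitm3, had 2085, 917 and 652 CPM and was 2.27-fold higher (1.91 to 2.73).

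The ISGF3 subunits had different ratios in monocytes, with intervals that overlap. Stat2 had 103, 34.2 and 36.8 CPM in CKO+RI, Flox+RI and Flox+ICI, and was 3.0-fold higher in CKO+RI than in Flox+RI (1.24 to 9.44). Irf9 had 55.0, 61.6 and 29.9 CPM, with a ratio of 0.892 (0.436 to 2.06). Rsad2, the enzyme viperin that makes a nucleotide which ends viral RNA chains, had 19, 5 and 34 UMIs in CKO+RI, Flox+RI and Flox+ICI monocytes and a ratio of 0.576 (0.208 to 1.97). Neutrophil markers summed to 1115, 2362 and 2307 CPM in these monocytes of CKO+RI, Flox+RI and Flox+ICI, with 10, 9 and 9 of 10 detected, and their part in the result was not tested. Within the cluster that held 56 of the 73 Flox+RI monocytes the median log2 ratio was 1.03, with 20 of 33 members at least 2-fold higher, against 11.4% of all genes there.

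**Figure D3:**
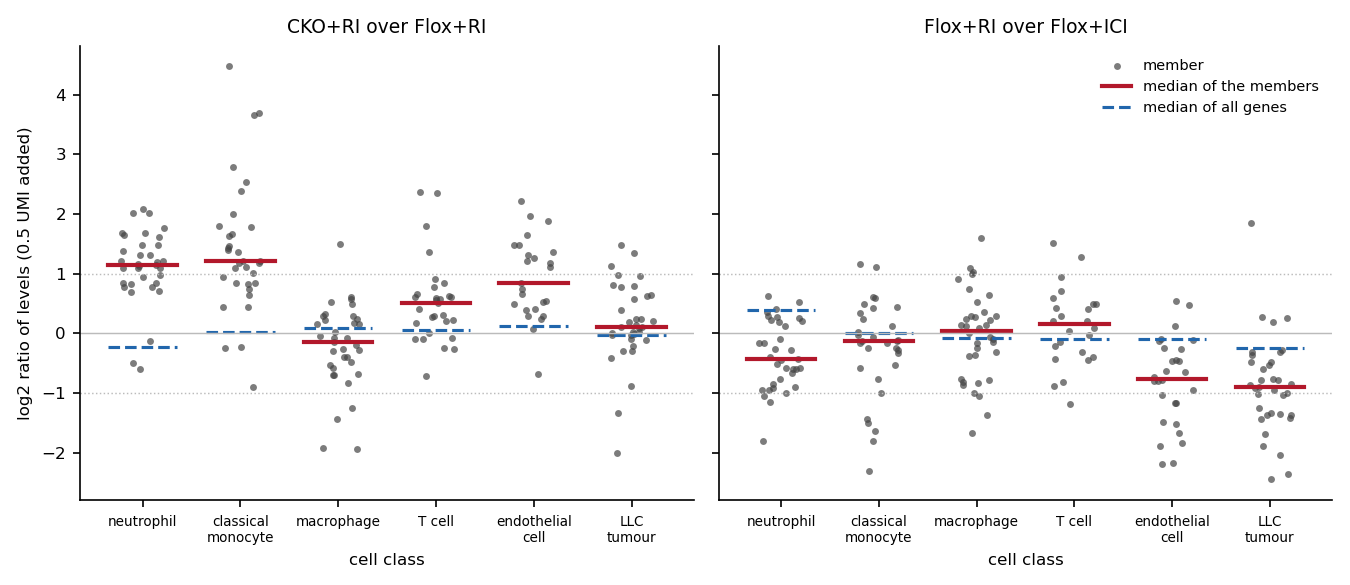
Log2 ratio of each measured member by cell class for CKO+RI over Flox+RI (left) and Flox+RI over Flox+ICI (right). Each point is a member, the red line is the members' median and the dashed blue line is the median of all measured genes. Dotted lines mark 2-fold. The medians for CKO+RI over Flox+RI are 1.15 in neutrophils, 1.20 in classical monocytes and -0.15 in macrophages.

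In macrophages few members passed 2-fold, at shares near those of all genes, and some of them went the other way. Of 35 measured, 1 was at least 2-fold higher in the library labelled CKO+RI than in Flox+RI and 4 at least 2-fold lower, where 5.84% of 11569 genes were higher by that fold and 8.12% lower. The median log2 ratio was -0.15, beside 0.09 for all genes. Irf7 had 168 UMIs in CKO+RI macrophages, 823 in Flox+RI and 377 in Flox+ICI, or 44.4, 169 and 89.3 CPM, and was 3.80-fold lower in CKO+RI than in Flox+RI (3.22 to 4.52). Oas3, an oligoadenylate synthetase that activates RNase L, had 7.39, 28.9 and 22.5 CPM and was 3.91-fold lower (2.59 to 6.09). For both, Flox+RI was the highest library, whereas Irf7 had its lowest value there in neutrophils and monocytes.

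Ifi27l2a had 138 CPM in CKO+RI macrophages, 375 in Flox+RI and 124 in Flox+ICI, and was 2.72-fold lower in CKO+RI than in Flox+RI (2.46 to 3.0). Lgals3bp had 116, 276 and 236 CPM and was 2.38-fold lower (2.14 to 2.66). Isg15 had 68.9, 104 and 94 CPM and was 1.5-fold lower (1.29 to 1.75). Other members did not share this direction. Parp14, an ADP-ribosyltransferase, had 60.2, 42.6 and 45.5 CPM and was 1.41-fold higher (1.17 to 1.71), and Ifi44 rested on 16 UMIs in CKO+RI, 7 UMIs in Flox+RI and 13 UMIs in Flox+ICI at 2.95-fold higher (1.15 to 8.46). Ifitm3 had 1802, 1602 and 753 CPM and was 1.12-fold higher in CKO+RI than in Flox+RI (1.09 to 1.16). Bst2 had 281, 278 and 307 CPM with a ratio of 1.01 (0.932 to 1.10), Stat2 a ratio of 1.22 (0.921 to 1.61) and Irf9 a ratio of 0.941 (0.673 to 1.31).

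The macrophages came from different clusters in the libraries. A cluster led by Ccl8, Pf4, C1qa and Mrc1 held 88.2% of those of CKO+RI, 37.4% of those of Flox+RI and 40.5% of those of Flox+ICI. The share of a second cluster, with Ctss, Hmox1 and Gpnmb in the lead, was 11.8%, 48.1% and 59.4%. Within the first the members' median log2 ratio of CKO+RI over Flox+RI was 0.14, with 2 of 34 measured members at least 2-fold lower, against 6.80% of all genes there. Within the second it was -0.77, with 15 of 34, against 10.5% of all genes there. Irf7 was lower in CKO+RI in each, with a ratio of 0.559 in the first (0.447 to 0.699) and 0.0739 in the second (0.0336 to 0.141). Oas3 had ratios of 0.471 and 0.333, and Ifi27l2a of 0.493 and 0.0959. Other members depended on the cluster. Isg15 had a ratio of 0.969 in the first (0.786 to 1.20) and 0.310 in the second (0.19 to 0.485), and Lgals3bp one of 0.799 (0.680 to 0.940) and 0.379 (0.296 to 0.478). Bst2 was higher in the first, at 1.45 (1.28 to 1.63), and lower in the second, at 0.701 (0.577 to 0.845). Ifitm3 likewise stood at 1.22 (1.17 to 1.27) and 0.234 (0.202 to 0.270). Only 52 CKO+RI cells lie in the second cluster. Classical monocyte markers summed to 1258, 1658 and 678 CPM in the macrophages of CKO+RI, Flox+RI and Flox+ICI (6 of 6 detected in each), and platelet markers to 3496, 2561 and 803 CPM (4, 3 and 4 of 5). The platelet markers include Pf4, a leading gene of the Ccl8-led macrophage cluster, so their sum need not be platelet RNA. The part of these markers in the result was not tested.

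In T cells 4 of 29 measured members were at least 2-fold higher in the library labelled CKO+RI than in Flox+RI and 0 were at least 2-fold lower, where 6.79% of 8926 genes were higher by that fold and 5.23% lower. Their median log2 ratio was 0.51, beside 0.06 for all genes. The leading 3 members belong to the Ifit genes on chromosome 19. Ifit2 had 53 UMIs in CKO+RI, 5 UMIs in Flox+RI and 20 UMIs in Flox+ICI, or 33.7, 6.06 and 14.8 CPM, and was 5.56-fold higher in CKO+RI than in Flox+RI (2.24 to 17.8). Ifit1 had 34, 3 and 6 UMIs, with a ratio of 5.94 (1.87 to 30.2). Ifit3 had 49, 7 and 11 UMIs and was 3.67-fold higher (1.65 to 9.61). Isg15 had 106, 71.5 and 62.3 CPM and was 1.48-fold higher (1.10 to 2.03). Of the 6 members that were lower, Oas3, Oasl2, Stat2, Ifi27l2a, Eif2ak2 and Ifitm3, only Ifi27l2a had an interval that left out 1, with 396, 474 and 246 CPM, 1.20-fold lower in CKO+RI than in Flox+RI (1.05 to 1.36). Irf7 had a ratio of 1.60 (0.994 to 2.65). Where whole clusters were named, Ifit1 had a ratio of 2.74 and Ifit3 one of 2.0, and with every cell given the same weight Ifit2 had a ratio of 3.59.

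The T cells of the libraries differed in other markers too. Regulatory T cell markers summed to 232 CPM in CKO+RI, 626 CPM in Flox+RI and 398 CPM in Flox+ICI (3 of 3 detected in each), CD8 markers to 761, 297 and 474 CPM (2 of 2) and NK cell markers to 77.5, 27.9 and 53.4 CPM (6, 3 and 4 of 6). Markers of erythroid cells summed to 336, 90.8 and 105 CPM (5 of 5) and those of fibroblasts to 138, 55.7 and 54.9 CPM. Hspa1a, a heat-shock gene of the dissociation stress list, had 319 CPM in CKO+RI T cells and 18.2 CPM in Flox+RI and was 17.6-fold higher in CKO+RI (10.6 to 31.7). The part of these in the T cell values was not tested.

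In endothelial cells 12 of 25 measured members were at least 2-fold higher in the library labelled CKO+RI than in Flox+RI and 0 were at least 2-fold lower, where 12.6% of 8141 genes were higher by that fold and 4.37% lower. On the log2 scale the members' median ratio was 0.85, beside 0.13 for all genes. Ifi27l2a had 66.2, 16.3 and 22.9 CPM in CKO+RI, Flox+RI and Flox+ICI and was 4.06-fold higher in CKO+RI than in Flox+RI (2.05 to 8.93). Herc6, a ligase that joins Isg15 to proteins in mice, had 52 UMIs in CKO+RI, 10 UMIs in Flox+RI and 77 UMIs in Flox+ICI and was 3.84-fold higher (1.93 to 8.47). Stat2 had 98.6, 31.0 and 88.7 CPM and was 3.18-fold higher (1.92 to 5.56), and Irf9 was 2.21-fold higher (1.09 to 4.85). Herc6 and Stat2 were low in Flox+RI and similar in the other libraries. Isg15 had 109, 60.3 and 137 CPM and was 1.81-fold higher (1.23 to 2.74). Bst2 was 1.22-fold higher (1.03 to 1.45), while Irf7 had 25.3, 40.8 and 37.9 CPM and a ratio of 0.62 (0.33 to 1.15). Median depth was 1829 UMIs in CKO+RI endothelial cells, 4095 in Flox+RI and 1453 in Flox+ICI. With cells thinned to 1000 UMIs, 4 members were at least 2-fold higher in CKO+RI than in Flox+RI and the median was 0.47, and with every cell given the same weight 6 members were, with a ratio of 1.95 for Stat2. Without doublet removal the ratio of Ifi27l2a was 2.46. Markers of other classes moved with CKO+RI. LLC tumour markers summed to 595 CPM in CKO+RI endothelial cells, 232 CPM in Flox+RI and 192 CPM in Flox+ICI (8 of 9 detected in each), and fibroblast markers to 186, 40.8 and 53.8 CPM (6, 5 and 7 of 8). Erythroid markers summed to 373, 89.7 and 161 CPM (4, 5 and 4 of 5), those of alveolar type 2 cells to 589, 212 and 600 CPM (8, 7 and 8 of 8) and those of neutrophils to 224, 209 and 684 CPM (9, 8 and 9 of 10). Their part in the result was not tested.

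In tumour cells the members were split. Of 35 measured, 3 were at least 2-fold higher in the library labelled CKO+RI than in Flox+RI and 2 at least 2-fold lower, where 4.72% of 16894 genes were higher by that fold and 9.48% lower. The median log2 ratio was 0.11, beside -0.03 for all genes. Parp14 had 8.53, 3.05 and 16.7 CPM in CKO+RI, Flox+RI and Flox+ICI and was 2.80-fold higher in CKO+RI than in Flox+RI (2.41 to 3.26). Oasl2 had 5.44, 2.13 and 8.78 CPM and was 2.55-fold higher (2.13 to 3.07). Xaf1, a partner of an inhibitor of apoptosis, had 7.15, 3.28 and 8.85 CPM and was 2.18-fold higher (1.88 to 2.53). All 3 were lowest in Flox+RI and highest in Flox+ICI. On the other side, Trim30a, a tripartite-motif protein, had 0.912, 3.66 and 1.0 CPM and was 4.01-fold lower in CKO+RI than in Flox+RI (3.20 to 5.05). Ifi44 had 0.315, 0.799 and 1.11 CPM and was 2.54-fold lower (1.65 to 3.93), and Rsad2 had 1.15, 2.12 and 2.73 CPM and was 1.84-fold lower (1.45 to 2.33). After thinning to 1000 UMIs the ratio of Ifi44 was 0.859 and that of Rsad2 was 1.0.

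The more abundant members of tumour cells differed less. Bst2 had 289, 222 and 420 CPM in CKO+RI, Flox+RI and Flox+ICI and was 1.30-fold higher in CKO+RI than in Flox+RI (1.28 to 1.33). Stat2 was 1.49-fold higher (1.40 to 1.59) and Irf9 1.71-fold higher (1.45 to 2.03). Isg15 was 1.08-fold lower (1.02 to 1.16) and Ifitm3 1.22-fold lower (1.21 to 1.23). Macrophage markers summed to 91.4, 130 and 139 CPM in tumour cells of CKO+RI, Flox+RI and Flox+ICI, with 9 of 9 detected in each, and their part in the low myeloid members such as Trim30a was not tested. Each library filled its own tumour clusters. The largest held 58.7% of CKO+RI tumour cells, another 90.8% of those of Flox+RI, and one more, led by Gbp2, Gbp7 and Iigp1, 67.1% of those of Flox+ICI.

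Within tumour clusters the comparison of CKO+RI with Flox+RI rested on few cells of one library or the other. In the largest cluster of CKO+RI, with 2595 cells of CKO+RI and 96 of Flox+RI, 12 of 34 measured members were at least 2-fold higher in CKO+RI and 1 at least 2-fold lower, against 7.13% and 9.76% of all genes there, and the median log2 ratio was 0.61. In the main cluster of Flox+RI, with 93 and 3449 cells, 1 of 35 was higher by that fold and 3 were lower. Of all genes there 4.86% were higher and 9.54% lower, and the members' median was 0.24. The other clusters gave medians of 0.07 and 0.45, with 5 of 34 and 4 of 20 higher. Bst2 had ratios of 1.42 in the largest cluster of CKO+RI (1.27 to 1.59) and 0.994 in the main one of Flox+RI (0.923 to 1.07). Ifitm3 turned from one cluster to the next, at 0.768 (0.730 to 0.808) and 1.12 (1.09 to 1.16), and so did Isg15, at 1.09 (0.735 to 1.69) and 0.492 (0.345 to 0.682).

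Flox+RI, set against Flox+ICI, had lower members in endothelial and tumour cells. In tumour cells 14 of 35 measured members were at least 2-fold lower in Flox+RI and 1 at least 2-fold higher, where 8.53% of 16344 genes were lower by that fold and 3.21% higher. Their median log2 ratio was -0.90, beside -0.24 for all genes. Parp14 was 5.47-fold lower in Flox+RI than in Flox+ICI (4.69 to 6.40). Cmpk2, a mitochondrial nucleotide kinase, had 0.610 CPM in Flox+RI and 3.14 CPM in Flox+ICI and was 5.15-fold lower (3.63 to 7.44). Oasl2 was 4.11-fold lower (3.4 to 5.0). The abundant members had the same direction, with Bst2 1.89-fold lower in Flox+RI (1.85 to 1.94) and Isg15, at 22.4 CPM in Flox+RI and 33.9 CPM in Flox+ICI, 1.52-fold lower (1.42 to 1.63). Among the regulators Irf9 was 2.59-fold lower (2.16 to 3.12) and Irf7 2.04-fold lower (1.78 to 2.33). The exceptions were Trim30a, 3.64-fold higher in Flox+RI (2.66 to 5.09), Ifi27l2a, 1.21-fold higher (1.09 to 1.36), Ifitm3, 1.19-fold higher (1.18 to 1.21), and Isg20, an exonuclease that degrades RNA, 1.15-fold higher (1.05 to 1.25). The 4 tumour clusters compared held 96, 79, 3449 and 160 tumour cells of Flox+RI and 100, 68, 66 and 731 of Flox+ICI. Within these clusters Bst2 was lower in Flox+RI in each, at ratios of 0.326 to 0.678. Ifi27l2a had ratios of 0.763 to 1.07 there with intervals that held 1, and Isg15 ranged from 0.625 to 1.38. Ifitm3 had a ratio of 0.686 in 1 of the 4 clusters (0.637 to 0.737). The cluster led by Gbp2 held 13 tumour cells of Flox+RI and was not compared.

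In endothelial cells 10 of 28 measured members were at least 2-fold lower in Flox+RI than in Flox+ICI and 0 were at least 2-fold higher, where 13% of 8363 genes were lower by that fold and 5.51% higher. The median log2 ratio was -0.76, beside -0.10 for all genes. Herc6 was 4.71-fold lower (2.43 to 10.2). Ifit3 had 4 UMIs in Flox+RI and 33 in Flox+ICI and was 5.04-fold lower (1.79 to 19.6). Zbp1, a sensor of Z-form nucleic acid, had 19.6 CPM in Flox+RI and 64.8 CPM in Flox+ICI and was 3.31-fold lower (1.77 to 6.73). These members were named for the largest ratios on the lower side, so their shared direction follows from that choice. Of the 28 measured members, 25 had a log2 ratio below 0 and 3 had one above 0. With every cell given the same weight the ratio of Ifit3 was 0.374, and after thinning to 1000 UMIs that of Zbp1 was 0.917. Stat2 was 2.86-fold lower (1.73 to 4.98), Isg15 2.26-fold lower (1.56 to 3.35) and Bst2 1.39-fold lower (1.18 to 1.64).

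Neutrophils had a smaller median ratio than endothelial and tumour cells in this comparison, but only before it was set against that of all genes. Of 35 measured members, 4 were at least 2-fold lower in Flox+RI than in Flox+ICI and 0 at least 2-fold higher, where 5.25% of 8363 genes were lower by that fold and 20.7% higher. The median log2 ratio was -0.43, but all genes had a median of 0.39, and relative to that median 11 members were at least 2-fold lower and the members' median was -0.82. Oas3 had 31.0 CPM in Flox+RI and 110 CPM in Flox+ICI and was 3.55-fold lower (2.52 to 5.12). Zbp1 was 2.02-fold lower (1.55 to 2.65) and Ifitm3 1.70-fold lower (1.61 to 1.80). Isg15 was 1.23-fold higher (1.06 to 1.41) and Bst2 1.44-fold higher (1.16 to 1.79). Within the Il1b-led cluster the members' median was -0.71, and within the Retnlg-led cluster it was 0.04. The direction of Isg15 turned, with a ratio of 0.759 in the Il1b-led cluster (0.620 to 0.931) and 1.95 in the Retnlg-led one (1.47 to 2.56). Bst2 had ratios of 0.867 (0.613 to 1.24) and 1.16 (0.664 to 1.91). Oas3 had ratios of 0.358 and 0.838 there, Zbp1 of 0.278 and 0.959, and Ifitm3 of 0.686 and 0.981.

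Monocytes, macrophages and T cells showed mixed directions between Flox+RI and Flox+ICI. In monocytes 6 of 31 measured members were at least 2-fold lower in Flox+RI and 2 at least 2-fold higher, where 10.6% of 8475 genes were lower by that fold and 8.02% higher. The median was -0.14 (-0.11 with members absent from Flox+RI at their bound), beside 0.01 for all genes, and Ifi27l2a was 1.41-fold higher in Flox+RI (1.17 to 1.68). With every gated monocyte kept the median was -0.26 and the ratio of Ifi27l2a turned to 0.899. In macrophages 4 of 36 were at least 2-fold lower and 3 at least 2-fold higher, where 3.27% of 11762 genes were lower by that fold and 3.79% higher, with a median of 0.04 beside -0.07 for all genes. In T cells 1 of 24 was at least 2-fold lower and 2 were at least 2-fold higher, where 4.63% of 8741 genes were lower by that fold and 2.05% higher, with a median of 0.15 beside -0.10 for all genes.

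Named members pulled in opposite directions in macrophages. Ifi27l2a was 3.02-fold higher in Flox+RI than in Flox+ICI (2.74 to 3.34), Ifitm3 2.13-fold higher (2.04 to 2.22) and Irf7 1.89-fold higher (1.67 to 2.14). Against them, Ifit3 had 53 UMIs in Flox+RI and 147 in Flox+ICI and was 3.20-fold lower (2.33 to 4.47). Rsad2, at 45.3 CPM in Flox+RI and 90.7 CPM in Flox+ICI, was 2.0-fold lower (1.69 to 2.37), and Ifit1 was 1.80-fold lower (1.32 to 2.45). Within clusters Rsad2 turned, with a ratio of 1.84 in the Ccl8-led cluster (1.25 to 2.73) and 0.341 in the Ctss-led one (0.275 to 0.420). Ifit3 had ratios of 0.572 and 0.254 and Ifit1 of 0.873 and 0.519, while Irf7, Ifi27l2a and Ifitm3 were higher in Flox+RI in both. In T cells Isg20 had 39 UMIs in Flox+RI and 22 in Flox+ICI and was 2.89-fold higher per class total (1.67 to 5.12). Also in T cells, Ifi27l2a was 1.92-fold higher (1.66 to 2.23), Ifitm3 1.51-fold higher (1.28 to 1.78) and Usp18 2.45-fold higher (1.12 to 5.57), while Herc6 was 1.77-fold lower (1.14 to 2.83).

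**Figure D4:**
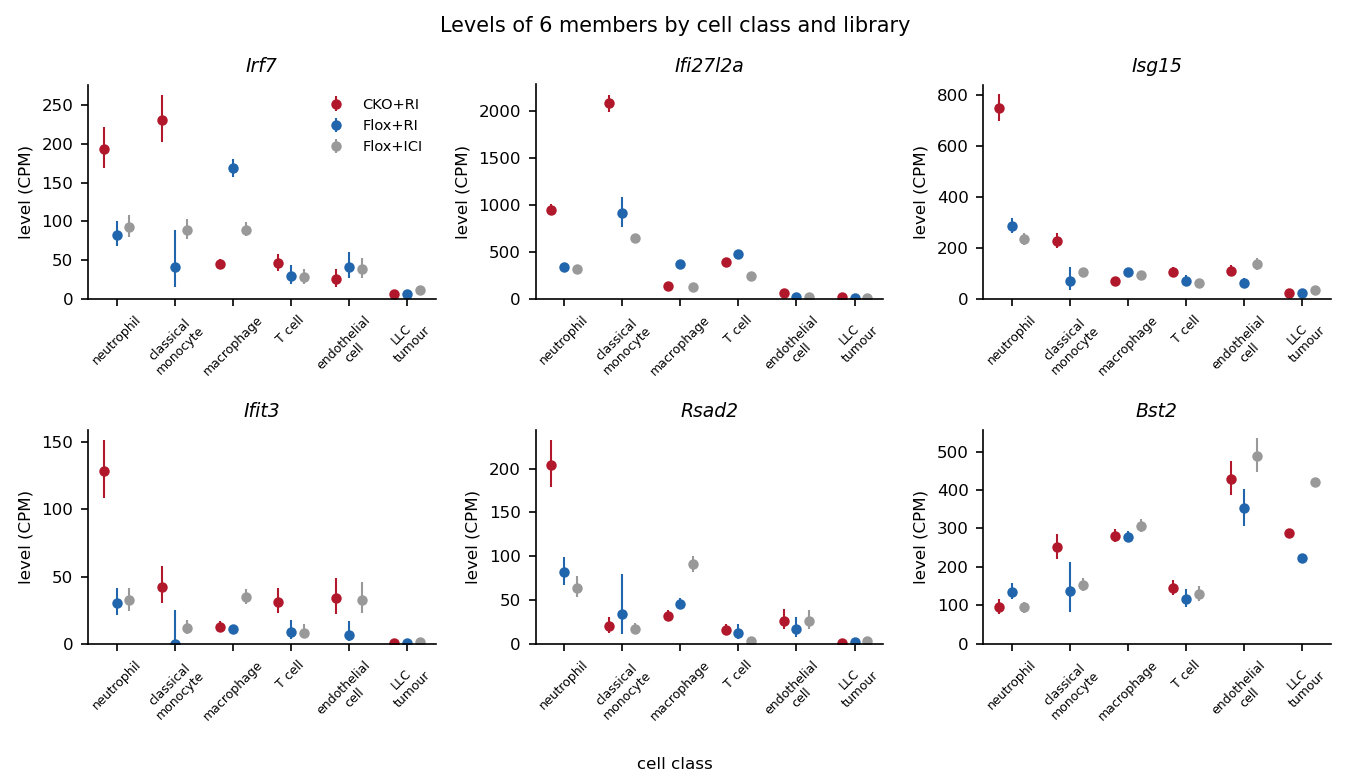
Level in CPM of Irf7, Ifi27l2a, Isg15, Ifit3, Rsad2 and Bst2 by cell class and library, with exact 95% Poisson intervals. Irf7 is highest in CKO+RI in neutrophils and monocytes (193 and 231 CPM) and highest in Flox+RI in macrophages (169 CPM).

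How many cells of a class carried the response was counted after each cell was thinned to a fixed depth, as the share of cells with at least 5 different members. At 2000 UMIs a share of 65.4% of 234 neutrophils passed in CKO+RI, 28.6% of 7 in Flox+RI and 31.5% of 89 in Flox+ICI, since most neutrophils were shallower than that. At 1000 UMIs the share was 38.5% in CKO+RI (34.2% to 42.9%, 499 cells), 12.6% in Flox+RI (8.51% to 17.6%, 223 cells) and 13.8% in Flox+ICI (11.6% to 16.3%, 883 cells), after leaving out 75, 1416 and 677 cells under that depth. Without thinning it was 59.4%, 8.05% and 18.7%. Neutrophils of CKO+RI had the largest share at each depth.

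Of classical monocytes 85.1% of 188 passed at 2000 UMIs in CKO+RI, 53.8% of 39 in Flox+RI and 37.3% of 593 in Flox+ICI. At 1000 UMIs the shares were 45.9% in CKO+RI (39.0% to 52.9%), 8.2% in Flox+RI (2.72% to 18.1%, 61 cells) and 12.9% in Flox+ICI (10.5% to 15.8%), and without thinning 91.9%, 38.4% and 56.3%. CKO+RI was highest in each case, while the order of the Flox libraries changed with the depth.

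Macrophages passed at 2000 UMIs in 14.7% of CKO+RI cells, 30.8% of Flox+RI cells and 19.7% of Flox+ICI cells, at 1000 UMIs in 5.84% (3.82% to 8.50%), 9.79% (8.04% to 11.8%) and 6.78% (5.06% to 8.86%), and without thinning in 64.7%, 53.1% and 54.9%. Endothelial cells passed at 2000 UMIs in 41.6% of CKO+RI cells, 18.3% of Flox+RI cells and 40.1% of Flox+ICI cells, at 1000 UMIs in 13.9% (9.46% to 19.5%), 4.0% (1.10% to 9.93%) and 10.1% (6.90% to 14.1%), and without thinning in 42.9%, 51.4% and 36.4%. In both classes the library that was highest after thinning was not the highest without it. Tumour cells passed at 2000 UMIs in 1.92% of CKO+RI cells, 1.13% of Flox+RI cells and 4.39% of Flox+ICI cells, and 83.4%, 62.2% and 76.3% without thinning. Of T cells 15.6%, 10.1% and 10% passed at 2000 UMIs in CKO+RI, Flox+RI and Flox+ICI, and 37.6%, 9.45% and 10.3% without thinning.

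**Figure D5:**
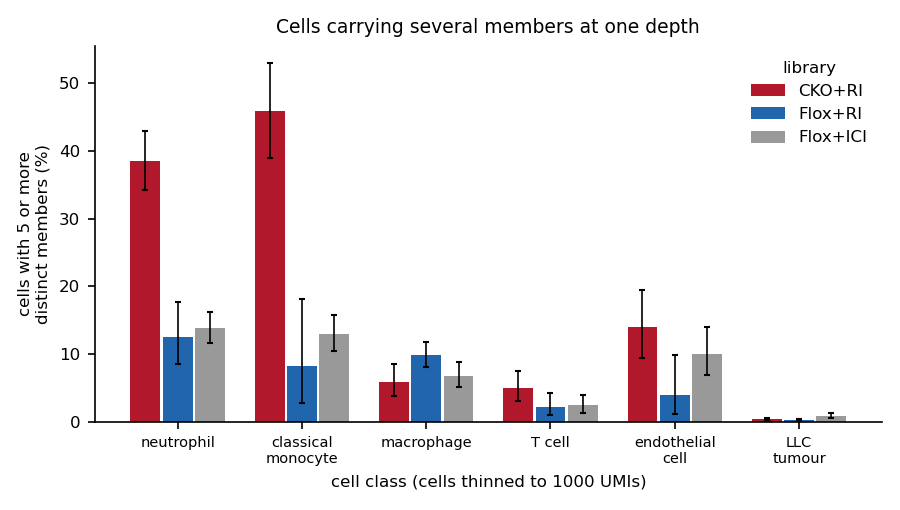
Share of cells (percent) with at least 5 different members after thinning to 1000 UMIs, by cell class and library, with exact 95% binomial intervals. CKO+RI stands apart in neutrophils (38.5%) and classical monocytes (45.9%).

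Other genes of the pathway were counted in the same fits. Of 9 receptor, kinase and regulator genes, the median log2 ratio of CKO+RI over Flox+RI lay between -0.26 in T cells and 0.50 in monocytes. Of 14 nucleic acid sensing genes, 7 were measured in neutrophils and 6 in endothelial cells. Their medians for CKO+RI over Flox+RI lay between -0.50 in neutrophils, with an interval over the genes of -3.47 to 1.55, and 0.11 in endothelial cells. A further list of interferon-stimulated genes had 9 of 28 measured genes at least 2-fold higher in CKO+RI than in Flox+RI in neutrophils, 15 of 34 in monocytes and 0 of 42 in macrophages, with medians of 0.71, 0.93 and -0.03. Of all genes 6.04%, 11.2% and 5.84% were higher by that fold in these classes. In endothelial, T and tumour cells 11 of 27, 5 of 38 and 5 of 42 were, with medians of 0.83, 0.54 and 0.24. There 12.6%, 6.79% and 4.72% of all genes were higher by that fold. Slfn4, a Schlafen family gene of myeloid cells, had 486, 181 and 478 CPM in neutrophils of CKO+RI, Flox+RI and Flox+ICI.

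Genes led by interferon gamma were counted as a list of their own. In CKO+RI over Flox+RI their medians were largest in tumour cells, endothelial cells and macrophages. There 13 of 18 measured in tumour cells, 12 of 16 in endothelial cells and 10 of 16 in macrophages were at least 2-fold higher, with medians of 2.09, 1.90 and 1.57, where 4.72%, 12.6% and 5.84% of all genes in these classes were higher by that fold. In neutrophils 6 of 12 were, with a median of 0.94, in monocytes 4 of 9, with a median of 0.66 (0.17 with absent genes at the floor), and in T cells 3 of 14, with a median of 0.20. In these classes 6.04%, 11.2% and 6.79% of all genes were higher by that fold. In Flox+RI over Flox+ICI, 16 of 18 in tumour cells, 15 of 17 in endothelial cells and 8 of 17 in macrophages were at least 2-fold lower, with medians of -4.21, -2.42 and -0.93, where 8.53%, 13% and 3.27% of all genes were lower by that fold. In monocytes 8 of 12 were lower by that fold, with a median of -1.87 (0.17 with absent genes at the floor), in neutrophils 4 of 12, with a median of -0.81, and in T cells 2 of 14, with a median of 0.09. Of all genes 10.6%, 5.25% and 4.63% were lower by that fold in these classes. Cxcl9, a chemokine that draws T cells, had 468 CPM in CKO+RI macrophages, 26.0 CPM in Flox+RI and 488 CPM in Flox+ICI and was 18-fold higher in CKO+RI than in Flox+RI (15 to 21.7). Iigp1, an immunity-related GTPase, had 13.7, 0.421 and 58.1 CPM in tumour cells of CKO+RI, Flox+RI and Flox+ICI and was 32.6-fold higher in CKO+RI than in Flox+RI (22.6 to 48.9). In macrophages, Cxcl9 was thus lowest in Flox+RI, where Irf7, Oas3 and Ifi27l2a were highest. Dissociation stress genes had medians between -0.22 and 0.50 over the 6 classes for CKO+RI over Flox+RI, and their part in the members' values was not tested.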

How the data were processed

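Single-cell RNA-seq was deposited as 3 count tables, 1 for each group by its title, holding raw UMI counts of the authors for each gene and barcode. They came from Cell Ranger, version 6.1.2 per the file headers and 6.0 per the submitters' processing notes. Seurat 5.0.3 and the build mm10 (GRCm38) are named in those notes too. No source used here gives the annotation. Every barcode held at least 500 UMIs, so shallower cells are absent, and free RNA in droplets can add UMIs to any class.

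Cells needed 200 genes or more and a mitochondrial share of no more than 20%. Doublets were scored with scrublet in scanpy 1.11.5 and removed at 0.8% per 1000 barcodes, and the rest were clustered (Leiden, resolution 1, 2000 variable genes, 30 components, 15 neighbours, no integration). A cell took a class when its markers were at least 2-fold enriched, at least 2 were present, and they led the next class 1.5-fold, in a cluster not named for another class. Tumour cells needed 3 markers, 2000 UMIs and at most 1 Xist UMI. These thresholds were set after the data were seen. UMIs were summed per class and library and divided by the class total (CPM). To count cells with at least 5 members, cells were thinned to 2000 UMIs, with 1000 as an alternative. Ratios have exact conditional binomial intervals, levels exact Poisson ones and shares Clopper-Pearson ones, all at 95%. Log2 ratios had 0.5 UMI added, and medians and counts cover genes with at least 20 UMIs over both libraries. The ratio, its interval and the 2-fold call were tested on simulated Poisson counts with known ratios. Those counts hold counting error only and no differences between mice, libraries or cells.

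Named by rule were, in each class, the 5 highest members and up to 3 per direction with the largest ratio by the interval bound nearest to 1 (1 per direction in the other lists), with Isg15, Ifit1, Ifit3, Irf7, Irf9, Stat2, Usp18, Bst2 and Ifitm3 open to naming anywhere. Lgals3bp in macrophages, Rsad2 in monocytes and Ifng were added after their values were seen. The members, lists and classes were chosen with earlier results of these data known. Of the classes with at least 50 cells in each library, 6 were compared, while alveolar macrophages, alveolar type 2 cells and fibroblasts are given as levels only. The settings tried in their place are given in the closing section.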

Additional observations from a re-analysis of the deposited data

Results flagged for a closer look

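Some members had opposite directions in different classes under the same comparison. Each interval over a whole class lay away from 1, though the differences between classes were not tested. For CKO+RI over Flox+RI, the ratio of Irf7 was 2.33 in neutrophils and 5.63 in classical monocytes (1.01 with every gated monocyte kept) but 0.263 in macrophages. The ratio of Oas3 was 3.41 in neutrophils, 2.12 in classical monocytes and 0.256 in macrophages. Within the Il1b-led neutrophil cluster it was 1.89 (0.820 to 4.15) and within the Retnlg-led cluster 1.22 (0.743 to 2.11), both with intervals that held 1. Ifi27l2a had ratios of 2.78 in neutrophils, 2.27 in classical monocytes and 4.06 in endothelial cells, against 0.368 in macrophages. Ifi44 had ratios of 2.95 in macrophages and 2.58 in endothelial cells and 0.394 in tumour cells (0.859 after thinning to 1000 UMIs). For Flox+RI over Flox+ICI, Usp18 had a ratio of 2.45 in T cells, 0.252 in endothelial cells and 0.416 in tumour cells.

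Rsad2 also appeared in erythroid-gated cells, which entered no comparison since Flox+ICI held 31 of them. It had 264 UMIs in 82 of 221 cells of CKO+RI, or 711 CPM (627 to 802), 9 UMIs in 7 of 52 cells of Flox+RI, or 133 CPM (61.0 to 253), and 22 UMIs in 10 of 31 cells of Flox+ICI, or 379 CPM (238 to 574). Rsad2 was among the 10 leading genes of the cluster led by haemoglobin genes.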

How the results depend on the processing

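No paired analysis was possible because each group has 1 library, so no library could be left out either. Medians below are log2 ratios of the members. For CKO+RI over Flox+RI the neutrophil median was 0.35 with whole clusters named and 0.72 within the Retnlg-led cluster. The macrophage median was -0.77 within the Ctss-led cluster, the endothelial median 0.47 after thinning to 1000 UMIs, and the tumour median 0.61 and 0.45 within 2 of the tumour clusters. For Flox+RI over Flox+ICI the neutrophil median was -0.82 centred on all genes, -0.71 within the Il1b-led cluster and, with a change of sign, 0.041 within the Retnlg-led cluster. The monocyte median was -0.37 with every cell given the same weight, and the tumour medians were -0.37, -0.31 and -0.44 within clusters. The other 127 medians stayed within the interval of the median over the members, though small ones crossed 0. The macrophage median was 0.14 within the Ccl8-led cluster for CKO+RI over Flox+RI, and for Flox+RI over Flox+ICI it ranged from -0.16 to 0.26, clusters included, and that of T cells from -0.07 to 0.25. Outside the settings within clusters, members at least 2-fold higher in CKO+RI than in Flox+RI ranged over the settings from 2 to 28 in neutrophils, 10 to 26 in monocytes, 0 to 1 in macrophages, 3 to 5 in T cells, 4 to 12 in endothelial cells and 3 to 6 in tumour cells, and in macrophages 4 to 6 were lower. Those lower in Flox+RI than in Flox+ICI ranged from 1 to 11 in neutrophils, 1 to 7 in monocytes, 2 to 4 in macrophages, 3 to 13 in endothelial cells and 11 to 16 in tumour cells. Within clusters 15 and 9 members were higher in CKO+RI in neutrophils, 12, 5, 1 and 4 in tumour cells, and 2 and 15 were lower in macrophages. The causes were not tested. Requiring 1 more marker left under 50 monocytes and no value. Summed levels were 0.615 to 1.59 times those given when whole clusters were named. Outside clusters, of 398 recomputed ratios of named members 394 stayed on the same side of 1, the exceptions being Bst2 in neutrophils of whole clusters (1.46), Ifi27l2a in monocytes of any cluster (0.899), and Rsad2 (1.0) and Ifi27l2a (0.996) in thinned tumour cells. The limits are 1 library in each group, unequal depth between libraries, and few Flox+RI monocytes.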

Other observations

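In CKO+RI, erythroid-gated cells held many UMIs of Isg15 and Rsad2 and few of the Ifit genes. Isg15 stood at 694 CPM in CKO+RI, 178 CPM in Flox+RI and 68.9 CPM in Flox+ICI, while Ifit1 had 4, 1 and 0 UMIs and Ifit3 had 3, 0 and 0 UMIs in the same cells. Rsad2, an enzyme, and Isg15, a protein modifier, were thus present with few UMIs of the Ifit genes in CKO+RI. The Flox libraries held too few of these cells to show an absence of Ifit genes. The interval of Ifit3 reached 54.6 CPM in Flox+RI and 63.6 CPM in Flox+ICI.

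Alveolar macrophages (154, 58 and 267 cells of CKO+RI, Flox+RI and Flox+ICI), alveolar type 2 cells (120, 90 and 305 cells) and fibroblasts (125, 50 and 169 cells) are given as levels only. The 35 members without Ifitm3 summed to 549 CPM in alveolar macrophages of CKO+RI, 1815 CPM in those of Flox+RI and 528 CPM in those of Flox+ICI, and 23 of the 58 cells of Flox+RI lay in the unnamed cluster that also held 370 gated neutrophils. In alveolar type 2 cells, which make surfactant, they summed to 544, 726 and 515 CPM in CKO+RI, Flox+RI and Flox+ICI. In fibroblasts, where the Col1a2 promoter is active, they summed to 1410 CPM in CKO+RI (1317 to 1507), 1260.4 CPM in Flox+RI (1137 to 1393) and 1764 CPM in Flox+ICI (1638 to 1897). Isg15 had 49.0, 109 and 80.0 CPM and Bst2 185, 181 and 254 CPM in the fibroblasts of CKO+RI, Flox+RI and Flox+ICI.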
